A study of Mus musculus with 4 samples.

Results

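Nodal and the genes that carry, receive and oppose its signal were read in 2 sorted populations of mouse Flk-1 positive cells. The members are Nodal, Gdf3, Tdgf1, Cfc1, Acvr2a, Acvr2b, Foxh1, Lefty1 and Lefty2, chosen by name with earlier results of these data known. All 9 were measured, among 18193 genes in all, on 16 probe sets that the platform annotation gives to a single gene. Each gene was read on its probe set with the highest mean over the 4 arrays, and the others are given beside it.

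The cells came from embryonic stem cells of the TT2 line in which 1 allele of Etv2, an ETS factor that drives blood and vessel formation, carried a knocked-in Venus fluorescent protein. They had been differentiated on OP9, a mouse stromal line, and the sample labels give day 5. Flk-1 positive cells, which carry the VEGF receptor encoded by Kdr, were sorted into an Etv2-Venus positive and an Etv2-Venus negative population, with 2 arrays of each, numbered 1 and 2. All arrays therefore share the cell line, the reporter allele and the Flk-1 gate. The labels do not say whether the arrays came from separate cultures, so p-values weigh each difference against a spread between arrays that may be technical.

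Nodal is a secreted ligand of the TGF-beta superfamily that induces and patterns the primitive streak, the source of mesoderm and endoderm. It binds type II receptors encoded by Acvr2a and Acvr2b together with a type I receptor such as that of Acvr1b, and it needs a membrane-anchored co-receptor of the EGF-CFC family, encoded by Tdgf1 (Cripto) or Cfc1 (Cryptic). The receptors phosphorylate Smad2 and Smad3, which act with DNA-binding partners such as Foxh1, and the pathway switches on its own ligand and its secreted antagonists Lefty1 and Lefty2.

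The sequences upstream of the start sites of Nodal, Tdgf1 and Cfc1 are printed because these were the ligand and co-receptor genes with the largest differences between the populations. RefSeq promoter entries were matched for 5 of the 9 members, namely these 3, Acvr2a and Acvr2b. Each run covers the 250 bases before the annotated start site, in GRCm38.p6, 5′ to 3′ on the strand of the gene. Capitals mark matches on either strand to TGTNNATT, a loose form of the Foxh1 motif, and to CAGAC, which holds the core that Smad proteins bind. The 2 N positions allow any base, so a match to TGTNNATT need not be a Foxh1 site, and binding was not tested.
Nodal, chr10:61417722-61417971, plus strand: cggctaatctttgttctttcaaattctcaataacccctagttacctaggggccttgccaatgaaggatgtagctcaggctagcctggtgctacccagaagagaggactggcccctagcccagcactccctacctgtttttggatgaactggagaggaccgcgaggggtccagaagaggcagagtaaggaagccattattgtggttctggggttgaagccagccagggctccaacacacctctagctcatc
Tdgf1, chr9:110946159-110946408, minus strand: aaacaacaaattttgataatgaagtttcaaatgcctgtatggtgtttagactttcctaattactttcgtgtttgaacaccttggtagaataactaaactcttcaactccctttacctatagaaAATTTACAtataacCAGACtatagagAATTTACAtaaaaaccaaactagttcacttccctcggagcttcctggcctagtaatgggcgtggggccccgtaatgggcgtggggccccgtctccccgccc
Cfc1, chr1:34535398-34535647, plus strand: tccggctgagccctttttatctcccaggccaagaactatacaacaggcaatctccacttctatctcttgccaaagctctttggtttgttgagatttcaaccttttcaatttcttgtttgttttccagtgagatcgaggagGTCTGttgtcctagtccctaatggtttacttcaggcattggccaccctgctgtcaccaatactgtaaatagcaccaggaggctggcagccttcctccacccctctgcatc
The Tdgf1 run held the Foxh1 form 2 times, as AATTTACA starting at positions -127 and -101 from the start site, with a CAGAC at -113 between them. The Cfc1 run held a single CAGAC on the opposite strand, at -110, and the Nodal run held neither motif. Sequence outside these 250 bases was not searched, so the absence holds for this run only. TGTNNATT was found in 10.9% and CAGAC in 42.2% of 32851 mouse promoter windows of the same length. Of the 5 members with an entry, 1 held TGTNNATT and 4 held CAGAC. A T-box form, GGTGTGA, was searched too, on both strands, and was found in 0 of the 5 and in 3.33% of all windows. The motifs do not overlap each other in these runs.

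All 9 members had a difference below 0, that is, a lower mean in the Etv2-Venus positive than in the Etv2-Venus negative cells, where 47.0% of all genes did. Their median difference was -0.33 log2 units, against 0.01 over all genes. The largest differences were those of the antagonist Lefty2 (-2.15), the co-receptors Cfc1 (-1.37) and Tdgf1 (-1.22) and the ligand Nodal (-0.84), while the type II receptors, Foxh1, Gdf3 and Lefty1 lay between -0.33 and -0.20. The positive arrays lay below both negative arrays for 7 of the 9 members, against 17.0% of all genes, and Nodal and Lefty1 overlapped. None of the members passed an adjusted p of 0.05 in limma, and 0.0% of all genes did. At an unadjusted p under 0.05, 5 members were lower, against 4.64% of all genes, and 0 were higher, against 7.07%. The members were chosen with earlier results of these data known, so these shares describe them and are not independent support. In sorted bulk samples, fewer cells that express a gene and less of its RNA per cell cannot be told apart.

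**Figure D1:**
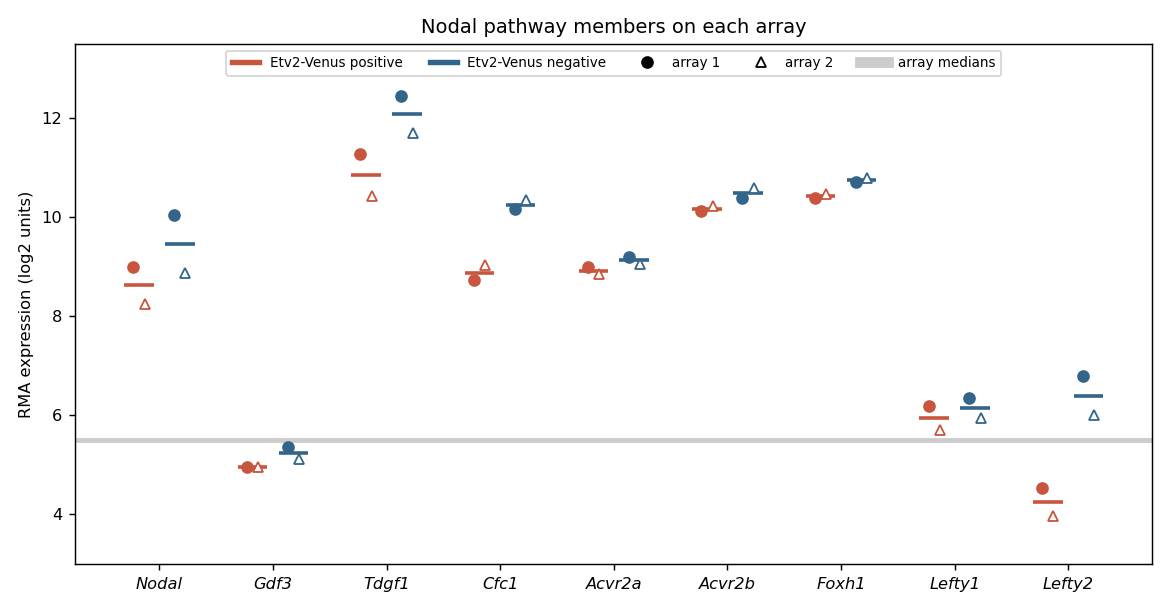
Expression of the 9 members in log2 units on each array, with Etv2-Venus positive arrays left of Etv2-Venus negative arrays, circles for array 1, triangles for array 2, and bars for group means; the grey band spans the array medians. Lefty2 lay at 4.53 and 3.97 in positive cells, under the band, against 6.79 and 6.003 in negative cells, while Nodal differed by 0.74 and 1.18 between arrays of the same population.

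The sort was checked on its own genes. Etv2 measured 12.64 and 12.41 in the positive cells and 12.03 and 11.87 in the negative cells, so the positive arrays were higher but Etv2 signal was also high in the cells sorted as negative. Kdr, on which both populations were selected, measured 12.64 and 12.81 in the positive and 12.51 and 12.68 in the negative cells. Its groups overlapped. Pdgfra, listed with the sort markers, went the opposite way to Etv2. It measured 8.55 and 7.67 in the positive cells, against 10.11 and 9.41 in the negative cells, and the groups were apart. The Pdgfra difference was -1.65 (SE 0.38, limma adjusted p = 0.195), larger in size than that of any member but Lefty2. Low values of this size were thus not confined to the members. The 6 endothelial markers that were listed, such as Tek and Flt4, all had both positive arrays above both negative arrays, against 22.4% of all genes. Over all genes the arrays of a population correlated at 0.996 in both populations (Pearson, across genes, which are not independent replicates).

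Nodal itself measured 8.998 and 8.25 log2 units on positive arrays 1 and 2, against 10.05 and 8.87 on negative arrays 1 and 2. In each population array 1 was the higher, and positive array 1 lay above negative array 2, so the groups overlapped. The difference was -0.84 (SE 0.46, 95% interval -2.06 to 0.38, 1.79-fold lower, n = 2 arrays per group, limma adjusted p = 0.595). A single array weighed heavily on this value, which was -0.25 without negative array 1, -0.47 without positive array 2 and -1.43 without negative array 2. Compared within array 1 the difference was -1.06, and within array 2 it was -0.62. The second probe set of Nodal read 6.98 and 5.61 in the positive and 7.73 and 6.51 in the negative cells, a difference of -0.83 with the same order of the arrays.

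Gdf3 encodes a Nodal-related ligand that also signals through EGF-CFC co-receptors. It measured 4.95 on both positive arrays, against 5.37 and 5.12 on the negative arrays. All 4 values lay below the array medians of 5.46 to 5.52, so this gene was dim in both populations and the size of its difference, -0.29 (SE 0.12), is uncertain. It was -0.17 without negative array 1 and -0.18 with its probe sets averaged. Its second probe set was dimmer still, at 4.57 and 4.39 in the positive and 4.60 and 4.48 in the negative cells, a difference of -0.06, and there the groups overlapped. The differences of Nodal and Gdf3 were 0.55 log2 units apart, with an exact two-sided permutation p of 0.667 over the 4 arrays, where the smallest p that 2 arrays against 2 can give is 0.333.

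Tdgf1, which encodes the co-receptor Cripto and is also a marker of pluripotent cells, measured 11.28 and 10.43 in the positive cells, against 12.45 and 11.71 in the negative cells. Both positive arrays were below both negative arrays, although the arrays of a population differed by 0.85 and 0.74, with array 1 the higher each time. The difference was -1.22 (SE 0.38, 95% interval -2.21 to -0.22, 2.33-fold lower, n = 2, limma adjusted p = 0.327). Within array 1 it was -1.16 and within array 2 it was -1.28. It was -0.79 without positive array 2 and -0.85 without negative array 1.

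Cfc1 encodes Cryptic, the EGF-CFC co-receptor best known from left-right patterning in the mouse embryo. It measured 8.73 and 9.04 in the positive cells, against 10.16 and 10.36 in the negative cells. The groups were well apart, and here array 2 was the higher in each population, by 0.31 and 0.20. The difference was -1.37 (SE 0.15, 95% interval -1.76 to -0.99, 2.59-fold lower, n = 2), with the smallest limma adjusted p of the members, 0.0698. Leaving out single arrays gave differences from -1.53 to -1.22. When limma was run with a variance trend and robust estimation, Cfc1 was called lower (limma adjusted p = 0.0391), the only member called in that setting, where 0.17% of all genes were called lower and 0.445% higher. The differences of Tdgf1 and Cfc1 were 0.16 log2 units apart (exact two-sided permutation p = 0.667, n = 4 arrays).

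**Figure D2:**
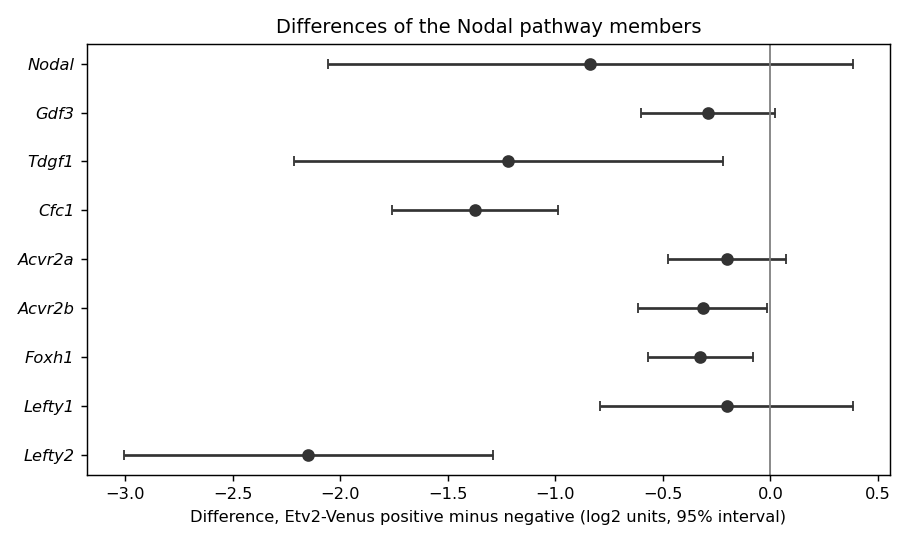
Differences between the populations, Etv2-Venus positive minus negative, in log2 units, with points for the fitted values and bars for 95% intervals of the limma fit (n = 2 arrays per group). The intervals of Lefty2, Cfc1, Tdgf1, Foxh1 and Acvr2b lie below 0, before any adjustment over genes, and that of Nodal runs from -2.06 to 0.38.

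The type II receptors Acvr2a and Acvr2b bind activins and several BMPs as well as Nodal. Acvr2a measured 8.99 and 8.86 in the positive cells, against 9.20 and 9.06 in the negative cells. The arrays were apart by a small margin, and the difference was -0.20 (SE 0.10, 95% interval -0.48 to 0.07, limma adjusted p = 0.569, n = 2). Its other probe set gave -0.16, and 1 further probe set names Orc4 as well as Acvr2a and was not used. Acvr2b measured 10.12 and 10.22 in the positive cells, against 10.38 and 10.60 in the negative cells, again apart. The difference was -0.32 (SE 0.11, 95% interval -0.62 to -0.01, limma adjusted p = 0.402, n = 2), and it was -0.21 without negative array 2. Its other probe sets gave -0.36 and, at values well below the array medians, -0.07, and on both of them the groups overlapped. The receptors' differences were 0.11 log2 units apart (exact two-sided permutation p = 0.667, n = 4 arrays).

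Foxh1 is the forkhead factor that carries Smad2 complexes to many Nodal target genes. It measured 10.39 and 10.46 in the positive cells, against 10.71 and 10.80 in the negative cells. The arrays of each population were close together and the groups were apart. The difference was -0.33 (SE 0.09, 95% interval -0.57 to -0.08, 1.25-fold lower, limma adjusted p = 0.286, n = 2). The other probe sets of Foxh1 gave -0.41 and -0.46, so its 3 probe sets shared direction and similar size, although the second, an _s_at probe set, may also bind similar transcripts.

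Lefty2 and Lefty1 encode secreted antagonists that bind Nodal and its co-receptors. Lefty2 is known from the nascent mesoderm and the left lateral plate of the mouse embryo and Lefty1 from the anterior visceral endoderm and the midline. Lefty2 measured 4.53 and 3.97 in the positive cells, against 6.79 and 6.003 in the negative cells. The groups were far apart, and the positive values were below the array medians. The difference was -2.15 (SE 0.33, 95% interval -3.01 to -1.29, 4.44-fold lower, limma adjusted p = 0.107, n = 2). It ranked 3 among the 18193 genes ordered from the lowest difference, where Cfc1 ranked 27, Tdgf1 46 and Nodal 134. As the positive values are dim, the size is uncertain. Leaving out single arrays gave -2.54 to -1.75.

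Lefty1 measured 6.20 and 5.71 in the positive cells, against 6.36 and 5.95 in the negative cells. Array 1 was the higher in each population and the groups overlapped. The difference was -0.20 (SE 0.22, 95% interval -0.79 to 0.39, limma adjusted p = 0.831, n = 2), and it turned to 0.04 without positive array 2. It was -0.0011 without negative array 1, -0.41 without negative array 2 and -0.45 without positive array 1. Read within each array, Lefty2 minus Lefty1 was -1.67 and -1.74 in the positive cells, against 0.44 and 0.05 in the negative cells. These values did not overlap, and their means differed by -1.95 log2 units, a size that is uncertain because Lefty2 was dim in the positive cells. The exact two-sided permutation p was 0.333 (n = 4 arrays), the smallest this design can give, and 0.667 after Benjamini-Hochberg adjustment over the 4 pairs of members compared.

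The spread between array numbers did not fall evenly on the members. Array 1 was higher than array 2 in both populations for 5 of the 9 members, against 45.9% of all genes. Averaged over the populations, array 1 exceeded array 2 by 0.96 log2 units for Nodal, 0.80 for Tdgf1, 0.67 for Lefty2 and 0.45 for Lefty1. For Cfc1 this average was -0.25, and for the receptors, Foxh1 and Gdf3 it lay between -0.16 and 0.13. In the positive and then the negative cells, the excess was 0.74 and 1.18 for Nodal and 0.85 and 0.74 for Tdgf1. It was 0.56 and 0.79 for Lefty2 and 0.49 and 0.41 for Lefty1. The standard deviation of array 1 minus array 2 over all genes, not averaged over the populations, was 0.25 in the positive and 0.24 in the negative cells. Among genes known to respond to Nodal, Mixl1 was higher on array 1 by 1.55, Fgf8 by 1.31 and Gsc by 1.28, all chosen after their values were seen. Mesp1, Lhx1 and Eomes were within 0.14 to 0.20. Such spreads were not confined to the pathway. The stroma markers Col3a1 (2.15) and Col1a2 (1.72) and the pluripotency markers Nanog (1.45) and Pou5f1 (0.80) were higher on array 1. Klf4 (-0.52) and Cxcl12 (-0.15) of the same lists were lower. These too were chosen after their values were seen. Array 1 was higher in both populations for 6 of 8 stroma markers, against 45.9% of all genes. The difference of Nodal between the populations, 0.84 in size, was thus smaller than its spread between array numbers. Those of Cfc1 and Lefty2 were larger than theirs. For Nodal that spread ran the same way in both populations, and same-numbered arrays were lower in the positive cells each time. With array number as a replicate block, the limma adjusted p was 0.134 for Nodal and 0.0856 for Tdgf1. The labels do not say that the numbers pair the samples.

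**Figure D3:**
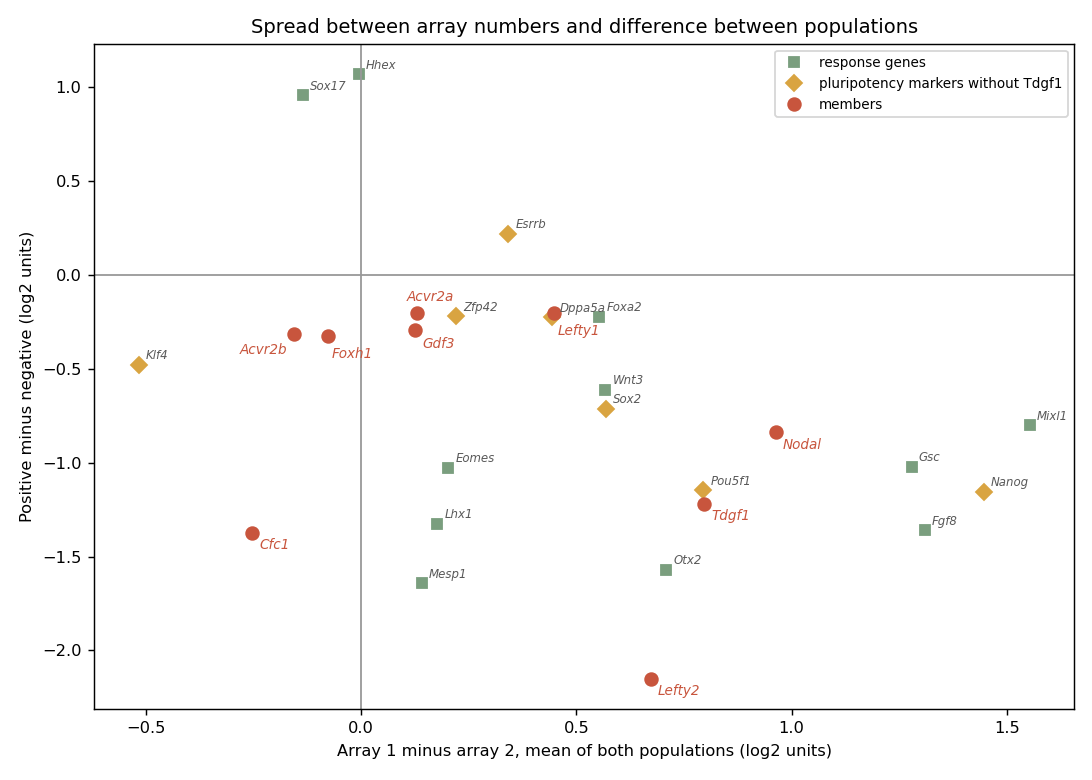
For each gene, the difference between array 1 and array 2 averaged over the populations (horizontal axis, log2 units) and the difference between Etv2-Venus positive and negative cells (vertical axis, log2 units), with circles for members, squares for response genes and diamonds for pluripotency markers. Nodal (0.96) and Tdgf1 (0.80) lie to the right with Gsc, Fgf8, Mixl1 and Nanog, and Cfc1 (-0.25) lies to the left with a difference of -1.37.

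Markers of other cells that the gate could hold were read beside these values. Of the 7 pluripotency markers other than Tdgf1, 6 had a difference below 0, against 47.0% of all genes. The positive arrays were apart below for 2, against 17.0% of all genes, and apart above for 0, against 22.4%. Pou5f1 measured 7.998 and 7.15 in the positive cells, against 9.09 and 8.35 in the negative cells. Nanog measured 5.35 and 4.01 in the positive cells, against 6.61 and 5.06 in the negative cells, so its groups overlapped, and its spread between array numbers, 1.45, was larger than its difference of -1.15 (SE 0.68). Zfp42, a marker of naive pluripotent cells, was dim, at 3.21 and 2.89 in the positive and 3.33 and 3.21 in the negative cells. The signal summed over the 7 markers in linear units was 1442 and 1755 in the positive cells, against 2347 and 2361 in the negative cells, but Klf4 supplied most of it. Without Klf4, a choice made after its values were seen, the sum was 557.0 and 353.1 in the positive cells, against 982.0 and 596.2 in the negative cells. Array 1 was the higher in both populations for all 6 markers left, against 45.9% of all genes, while Klf4 was higher on array 2 in both. Of the 9 members, 5 were higher on array 1 in both populations, not far from the 45.9% of all genes. They were Nodal, Tdgf1, Lefty1, Lefty2 and, by only 0.13 on average, Acvr2a.

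Of 5 endoderm markers, 4 had a difference below 0, against 47.0% of all genes, and the median was -0.22. Their summed signal was 1085 and 919.5 in the positive cells and 1109 and 754.8 in the negative cells. Sox17, also a factor of endothelium, made up much of it, and without Sox17, again a choice made after seeing the values, it was 477.7 and 304.5 in the positive cells, against 820.7 and 411.3 in the negative cells. Of 8 stroma markers, 6 had a difference below 0, against 47.0% of all genes, with a median of -0.20. The positive arrays were apart below for 2 of the 8, against 17.0% of all genes. Their summed signal was 1486 and 686.1 in the positive cells, against 1796 and 937.9 in the negative cells, and it was higher on array 1 in each population. The sums of both lists overlapped between the populations, also for endoderm without Sox17. Endothelial markers went the other way, with sums of 3847 and 3710 in the positive cells, against 1660 and 1687 in the negative cells. The part of these cells in the members' differences was not tested.

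The rest of the pathway was followed in 3 lists, and no gene in them passed an adjusted p of 0.05. Of 12 measured ligands and extracellular modulators, the positive arrays were apart above for 3, near the 22.4% of all genes, and below for 4, against 17.0% of all genes, with a median difference of 0.06. Pcsk5, a proprotein convertase, measured 9.09 and 8.88 in the positive cells, against 10.14 and 9.79 in the negative cells, a difference of -0.98 (SE 0.16) on an _s_at probe set, which was -0.50 with its probe sets averaged. Fst, the activin antagonist follistatin, measured 8.45 and 7.83 in the positive cells, against 9.67 and 9.23 in the negative cells. The Nodal antagonist Cer1 differed by -0.59 (SE 0.25), a value of -0.29 without negative array 1 and -0.90 without negative array 2. Its positive arrays, at 5.99 and 5.64, lay not far above the array medians. Tmeff1, which binds Cripto, differed by -0.24 (SE 0.10) and Furin, a convertase that cleaves the Nodal precursor, by 0.18 (SE 0.09). With probe sets averaged, Cer1 became -0.44 and Tmeff1 -0.17, while Furin stayed at 0.18.

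Of 15 type I receptors and intracellular transducers, 1 had its arrays apart above, against 22.4% of all genes, and 6 below, against 17.0%, and the differences ran only from -0.38 to 0.25, with a median of -0.12. Acvr1b, the type I receptor of Nodal and activin, measured 10.33 and 10.29 in the positive cells, against 10.12 and 10.002 in the negative cells, a difference of 0.25 (SE 0.09), which was 0.11 with its probe sets averaged. The corepressors Tgif1 and Skil differed by -0.35 (SE 0.11) and -0.19 (SE 0.09), the ubiquitin ligase Smurf1 by -0.38 (SE 0.22) and the inhibitory Smad7 by -0.15 (SE 0.11). With probe sets averaged these became -0.12 for Skil and Smurf1 and -0.093 for Smad7. Leaving out single arrays moved Smurf1 between -0.62 (without negative array 2) and -0.14 (without negative array 1), with -0.20 without positive array 2. Smad7 became -0.058 without positive array 1 and -0.25 without positive array 2. Smad2 and Smad3, the transducers themselves and chosen after their values were seen, differed by 0.01 (95% interval -0.34 to 0.35) and -0.13 (95% interval -0.46 to 0.20).

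Of 11 measured genes known to respond to Nodal or activin, the positive arrays were apart below for 6, against 17.0% of all genes, and above for 2, against 22.4%, with a median of -1.02. At least 2-fold differences were seen in 6 of them in the lower direction, against 0.423% of all genes, and in 1 in the higher direction, against 0.599%. Mesp1, a factor of nascent mesoderm, measured 9.23 and 9.07 in the positive cells, against 10.86 and 10.73 in the negative cells. Lhx1, a LIM homeobox factor, measured 10.47 and 10.33 in the positive cells, against 11.84 and 11.62 in the negative cells. Eomes, a T-box factor of the streak, measured 11.24 and 11.17 in the positive cells, against 12.40 and 12.06 in the negative cells. The exceptions were Hhex and Sox17, which are also factors of endothelium and blood precursors. Hhex measured 11.65 and 11.66 in the positive cells, against 10.58 on both negative arrays, and Sox17 measured 9.25 and 9.26, against 8.17 and 8.42. Sox17 was read on an _x_at probe set, a kind that may also bind similar transcripts. Its difference of 0.96 was 0.95 with its probe sets averaged. The limma adjusted p was 0.0670 for Mesp1, Hhex and Lhx1, 0.0882 for Sox17 and 0.0955 for Eomes.

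**Figure D4:**
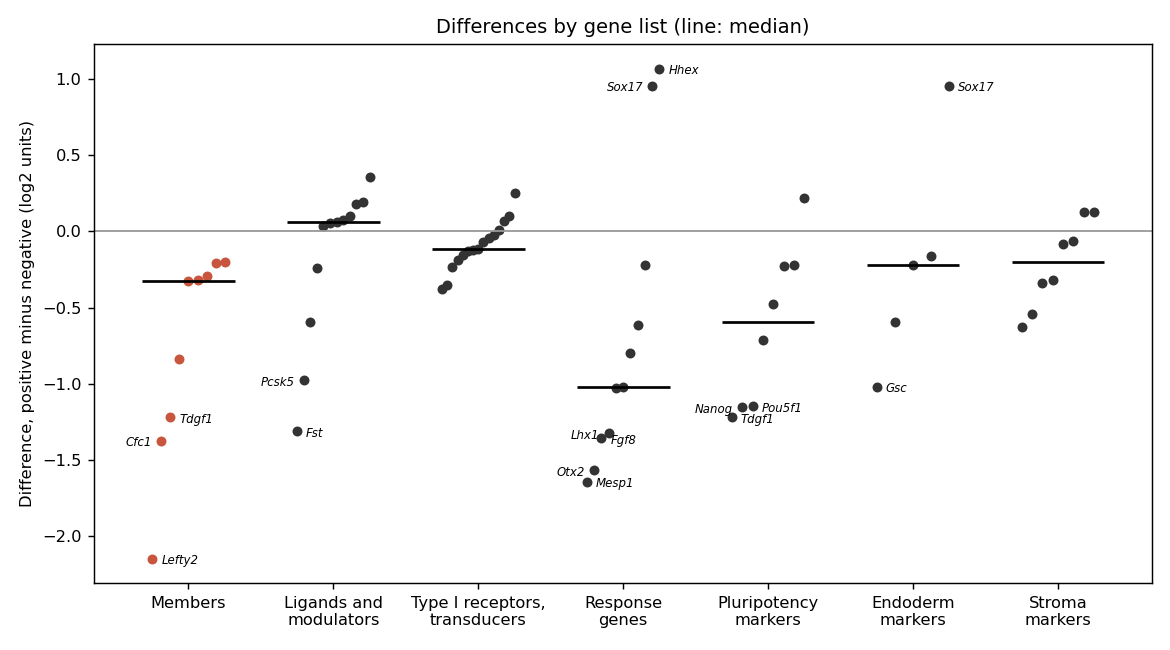
Differences between the populations, Etv2-Venus positive minus negative, in log2 units, for each gene of the members, the 3 pathway lists and the marker lists, with a line at each list's median. The members' median was -0.33, that of the response genes -1.02, and that of type I receptors and transducers -0.12.

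Cfc1 had the smallest p of the members, and the genes most like it were sought by the distance between profiles over the 4 arrays, each centred on its own mean. The 5 nearest of all genes were Phlda2, Amhr2, Dact1, Foxf1 and Crabp2, at distances of 0.15 to 0.30 log2 units. Phlda2, an imprinted gene of placental growth, measured 10.31 and 10.71 in the positive cells, against 11.91 and 12.11 in the negative cells. Foxf1, a forkhead factor of lateral plate mesoderm, measured 6.26 and 6.87 in the positive cells, against 7.92 and 8.21 in the negative cells, a difference of -1.49 that was -0.93 with its probe sets averaged. Dact1, an intracellular modulator of Wnt signalling, differed by -1.51, Amhr2, a type II receptor of the TGF-beta superfamily, by -1.34 and Crabp2, a retinoic acid binding protein, by -1.11. Amhr2 was read on an _x_at probe set, which may also bind similar transcripts. With 4 arrays, such likeness describes these arrays only.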

How the data were processed

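Total RNA of the sorted cells was biotin-labelled with the Affymetrix 3'IVT Express kit for arrays, per the labels' protocols. The authors deposited 1 value per probe set and array, on a log2 scale, made with RMA, and the submitters' processing notes name R 2.8.0. The base of the log was inferred from the range, 2.16 to 14.93. RMA removes shifts common to all genes and compresses differences of dim genes. Detection calls were not used here, and the number of arrays limits the precision.

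Symbols came from the platform annotation, checked through Entrez identifiers against RefSeq (GRCm38.p6), where 0 of 34741 matched probe sets changed symbol. The comparison used limma 3.58.1 (lmFit, eBayes) under R 4.3.3, two-sided, with the group as the only term and Benjamini-Hochberg adjustment over 18193 genes at a threshold of 0.05. The fit had 2 residual and 2.68 prior degrees of freedom. This test was first run on simulated data with known changes and noise drawn independently for each array. The spread shared by same-numbered arrays was not simulated, so that run does not show how the test behaves under it. The members, the lists and the rules were chosen with earlier results of these data known. The rule named the members, Etv2 and Kdr, the up to 5 genes per pathway list with the smallest p whose higher group averaged at least 6 log2 units, and the 5 genes nearest to the member with the smallest p. Some listed genes were not matched and are not analysed here. Alternatives covered probe set choice, a filter on dim genes, the variance model, normalization, a block for array number, and each array left out in turn. Figures were drawn with matplotlib 3.10.9.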

Additional observations from a re-analysis of the deposited data

How the results depend on the processing

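The count of genes called over all genes was 0 in limma, with 1287 higher and 844 lower at an unadjusted p under 0.05. It became 112 (81 higher, 31 lower) with a variance trend and robust estimation, and 79 (66 higher, 13 lower) when only the 10179 genes averaging at least 6 log2 units were tested. In the first of these settings 1 member was called, Cfc1. In the second, Lefty2 and Gdf3 averaged below 6 and were not tested, and 0 of the other 7 members were called. In both of these settings 3 response genes were called, Mesp1, Lhx1 and Hhex. The members' median of -0.33 became -0.40 when each gene's probe sets were averaged, -0.36 after quantile normalization run again and -0.29 with arrays centred on their medians, and it ran from -0.45 to -0.36 without single arrays. Lefty1 turned to 0.0407 without positive array 2. All other members stayed below 0 in every setting run. The cause of these shifts was not tested. The labels do not say that array numbers pair the samples. The deviations of same-numbered arrays correlated at 0.54 across genes. With the array number as a replicate block, 0 genes and 0 members were called, and the smallest adjusted p of a member was 0.0856. Dim signal limits the sizes for Lefty2 and Gdf3.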
